A study of Mus musculus with 8 samples.

Results

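The 6 genes described here encode the cannabinoid receptor CB1 (Cnr1) and the main enzymes that make and break down its ligands in brain: Dagla, Daglb, Mgll, Faah and Napepld. They were taken by symbol from the 32285 genes of the feature tables, and all 6 were found. The nuclei were isolated from left-hemisphere punches of 2 regions, anterior hippocampus and caudate putamen, in C57BL/6JN mice aged 3 or 21 months, with no other treatment or genotype in the labels. Each of the 4 groups (3-month hippocampus, 21-month hippocampus, 3-month caudate putamen, 21-month caudate putamen) had 2 libraries, and each library mixed nuclei of a male and a female mouse of that age in equal parts. RNA was read by droplet single-nucleus sequencing, which counts unique molecular identifiers (UMIs) per gene and nucleus. With 2 libraries per group and no label that describes how the mice of different libraries relate, p-values measure the spread between these libraries.

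Endocannabinoids are lipids made on demand, mostly in postsynaptic neurons, that travel back to the presynaptic terminal and act there on CB1, a G protein-coupled receptor that lowers transmitter release. The most abundant of them in brain, 2-arachidonoylglycerol (2-AG), is made by the diacylglycerol lipases DAGLα (Dagla, the main enzyme at adult synapses) and DAGLβ (Daglb, known for its role in microglia and other immune cells), and is hydrolysed mainly by monoacylglycerol lipase (Mgll). The other, anandamide, can be made by the phospholipase D encoded by Napepld and is hydrolysed by fatty acid amide hydrolase (Faah). In hippocampus CB1 is best known on the terminals of cholecystokinin basket cells, and in striatum on the terminals of medium spiny neurons and of cortical afferents. RNA in a nucleus marks the cell that transcribes the gene and not the terminal that carries the protein.

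In GRCm38 with GENCODE vM21, Cnr1 (ENSMUSG00000044288) lies on the plus strand of chromosome 4 from 33924593 to 33948831. Faah (ENSMUSG00000034171) lies on the minus strand of the same chromosome from 115967145 to 116017926. Mgll (ENSMUSG00000033174) lies on the plus strand of chromosome 6 from 88724412 to 88828360 and, at 104 kb, is the longest of the 6. Dagla (ENSMUSG00000035735) lies on the minus strand of chromosome 19 from 10245265 to 10304877. Daglb (ENSMUSG00000039206) lies on the plus strand of chromosome 5 from 143464584 to 143505942, and Napepld (ENSMUSG00000044968) on the minus strand of chromosome 5 from 21662901 to 21701396. Nuclear RNA holds many unspliced transcripts, which give long genes more UMIs, so levels are compared between classes for 1 gene and not between genes.

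The RefSeq promoter windows (GRCm38.p6, 250 bases before to 50 after the start site) are shown for the receptor and for the main hydrolase of each lipid. Cnr1 had 3 such windows, Mgll 2 and Faah 1, and 1 is shown for each gene. The windows shown are chr4:33924394-33924693 (plus strand) for Cnr1, chr6:88724162-88724461 (plus strand) for Mgll and chr4:116017875-116018174 (minus strand) for Faah. Capitals mark GGGCGG or its complement CCGCCC, the core of a GC box.
Cnr1: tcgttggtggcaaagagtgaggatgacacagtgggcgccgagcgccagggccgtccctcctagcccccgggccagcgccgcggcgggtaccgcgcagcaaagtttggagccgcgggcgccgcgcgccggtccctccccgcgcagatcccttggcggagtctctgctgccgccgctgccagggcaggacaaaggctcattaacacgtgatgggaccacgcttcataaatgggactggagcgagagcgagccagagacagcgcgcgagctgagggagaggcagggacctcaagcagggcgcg
Mgll: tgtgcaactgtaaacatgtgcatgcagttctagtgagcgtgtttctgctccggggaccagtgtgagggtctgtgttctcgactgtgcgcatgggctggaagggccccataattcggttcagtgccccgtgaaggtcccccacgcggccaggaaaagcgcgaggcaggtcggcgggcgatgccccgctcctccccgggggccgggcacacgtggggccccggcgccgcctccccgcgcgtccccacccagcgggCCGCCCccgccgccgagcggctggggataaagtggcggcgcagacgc
Faah: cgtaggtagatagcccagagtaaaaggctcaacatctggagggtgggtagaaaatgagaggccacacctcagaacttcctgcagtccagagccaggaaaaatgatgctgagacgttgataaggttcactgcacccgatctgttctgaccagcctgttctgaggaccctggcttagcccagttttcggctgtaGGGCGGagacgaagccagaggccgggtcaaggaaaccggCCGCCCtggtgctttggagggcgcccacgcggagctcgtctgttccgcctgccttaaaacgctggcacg
The GC content was 69.0% for Cnr1, 70.0% for Mgll and 57.7% for Faah, against a median of 52.7% over 32851 windows of the same length. In the windows shown, GGGCGG on either strand occurred 0 times for Cnr1, 1 time for Mgll and 2 times for Faah. It occurred in 35.7% of all windows. TATAAA (in 13.6% of all windows) and the cyclic AMP response element TGACGTCA (in 1.79%) occurred in none of the 5 members' windows read, which also included Daglb and Napepld. These matches describe letters and show no binding.

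The deposited matrices held 109826 nuclei, of which 97912 were retained, 6382 to 17031 per hippocampal library and 11514 to 16327 per caudate putamen library. Library totals ran from 67205436 to 234811422 UMIs, with a median of 6702 to 11266 UMIs per retained nucleus. Any 2 libraries shared 0.266% to 0.548% of their barcodes, at most 77. Clusters were named from marker genes, without the 6 members and a list of related genes in the clustering, and every class name below means "like" that type. Each class used in a test showed at least 5 of its markers at 10 CPM (each count as a share of its class total, scaled to 1000000) or more and had 0 markers at 0. Clusters without a clear name, 9 in hippocampus and 7 in caudate putamen, held 7.07% to 11.7% and 5.16% to 18.4% of nuclei per library. They were left out of the classes, and their Cnr1 levels reached 1.57 to 49.1 CPM (hippocampus) and 21.2 to 317 CPM (caudate putamen). Their highest levels exceeded the mean of the highest class named below for Napepld in hippocampus (87.2 CPM). In caudate putamen they did so for Cnr1 (317 CPM) and Faah (46.0 CPM). Counts were summed per class and library, and levels are CPM of those sums with the SD over 4 libraries. Libraries are listed in the order 3-month 1, 3-month 2, 21-month 1, 21-month 2.

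The 6 genes differed in the class of highest level, taken among classes with 20 or more nuclei in each library. In hippocampus Cnr1 was highest in interneurons, Dagla and Faah in CA3 pyramidal neurons, Daglb in microglia, Mgll in astrocytes and Napepld in dentate granule neurons. In caudate putamen Cnr1 was highest in eccentric medium spiny neurons, Dagla and Daglb in microglia, Mgll in astrocytes, Faah in Sst interneurons and Napepld in oligodendrocytes. Over all pairs of classes with 20 or more nuclei in each library, the members passed the adjusted threshold of 0.05 in 204 of 270 tests in hippocampus (75.6%) and 226 of 330 in caudate putamen (68.5%). Over all genes those shares were 53.9% and 50.6% (edgeR's quasi-likelihood test with the library as block). The fit rescales libraries by the trimmed mean of M-values (TMM), which raised a neuron's value against other cells by a median of 0.41 on the log2 scale relative to plain CPM (range -0.03 to 0.82). Between neuron classes the shift was 0.16 in the median, and within a class, between ages or regions, it ran from -0.07 to 0.10.

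**Figure D1:**
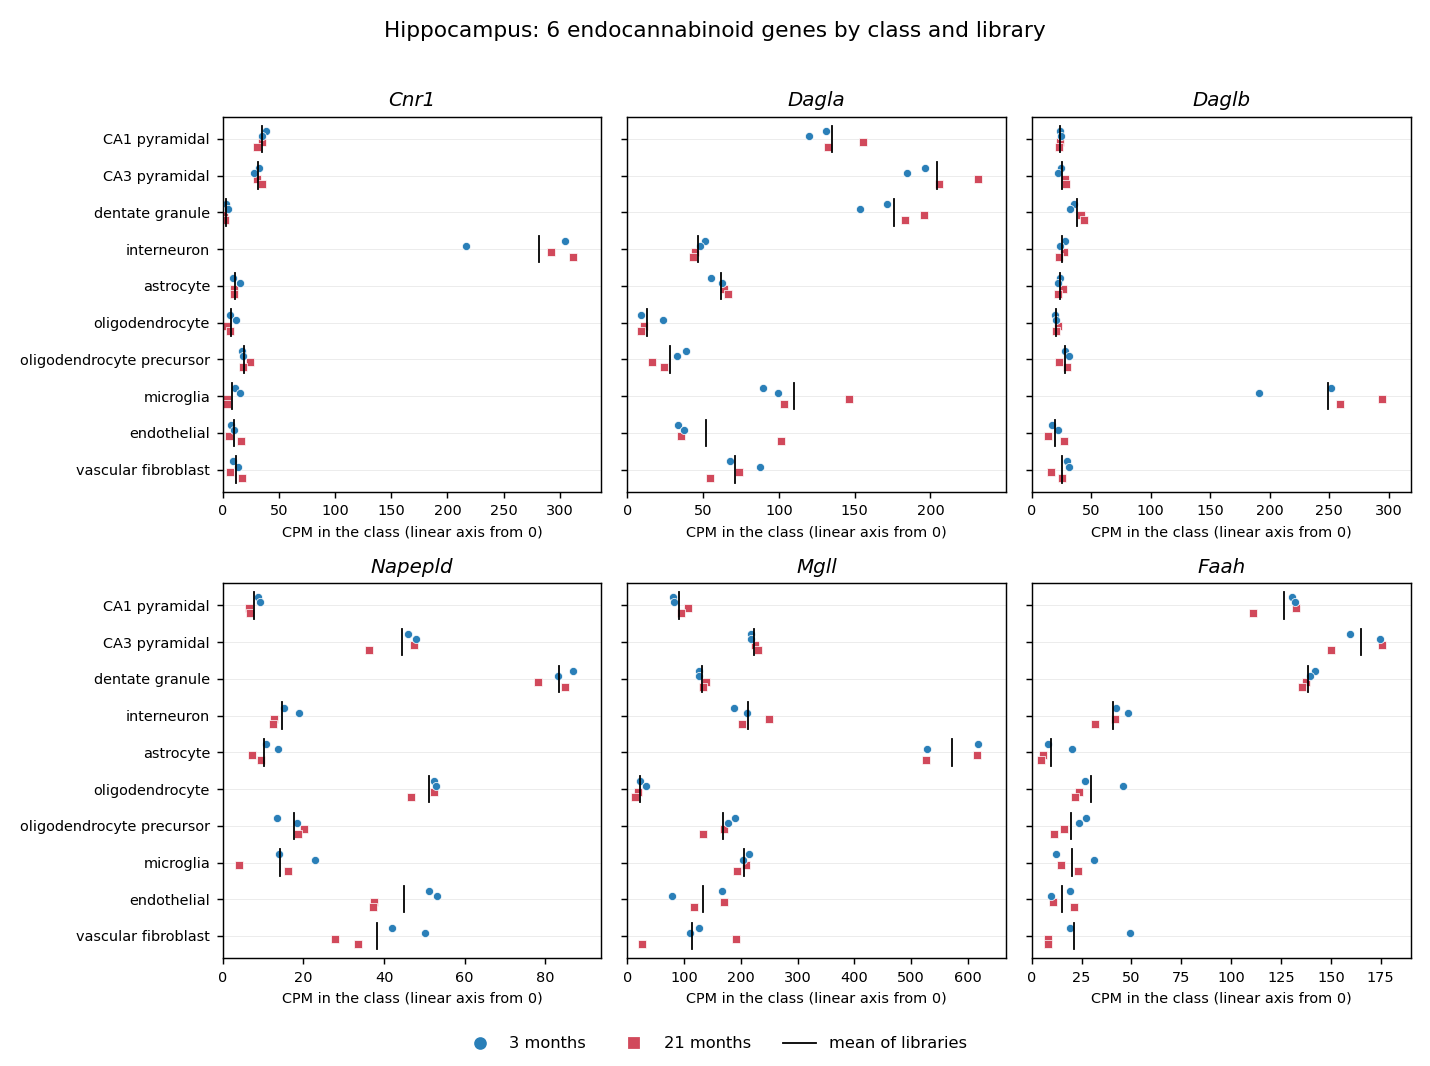
Level of each of the 6 genes (CPM of class sums, linear axis from 0) in the classes of the hippocampus, with 1 point per library and separate colours for 3 and 21 months. Cnr1 sits at 216 to 312 CPM in interneurons and at 1.46 to 5.03 CPM in dentate granule neurons, Mgll is highest in astrocytes and Daglb in microglia.

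Cnr1, the receptor, was concentrated in hippocampal interneurons. Interneurons held 304, 216, 292 and 312 CPM (mean 281 ± 44.1, SD, n = 4). CA1 pyramidal neurons held 38.2, 35.2, 34.8 and 30.9 CPM (34.8 ± 3.00) and CA3 pyramidal neurons 32.6, 27.7, 30.2 and 35.2 CPM (31.4 ± 3.23). Each interneuron library was above each pyramidal neuron library, and CA1 and CA3 overlapped. The interneuron level was 7.16-fold that of CA1 in the fit (log2 2.84, SE 0.19, adjusted p = 1.68e-14), and CA1 and CA3 were not told apart (adjusted p = 0.772). Dentate granule neurons, at 3.26, 5.03, 1.46 and 2.20 CPM, held the least of the classes tested. Their log2 difference from interneurons was -6.47 (SE 0.23, adjusted p = 1.17e-22) and from CA1 -3.63 (adjusted p = 1.07e-16). Glia and vascular cells lay between pyramidal and granule neurons, at 19.3 CPM in oligodendrocyte precursor cells, 11.6 in vascular fibroblasts, 11.2 in astrocytes, 9.81 in endothelial cells, 8.35 in microglia and 7.41 in oligodendrocytes, and the last exceeded dentate granule neurons by log2 1.11 (adjusted p = 0.000625). The share of nuclei with a Cnr1 UMI after thinning to 3000 UMIs was 29.6% to 33.7% in interneurons (42.9% to 56.0% without thinning, median depth 14041 to 22045.5 UMIs) and 0.396% to 1.53% in dentate granule neurons (1.73% to 5.64%, 10012 to 11531 UMIs).

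The interneuron signal was uneven. The 807 hippocampal interneuron nuclei were split further, again without the 6 genes, and the nuclei of the 4 libraries were pooled, so the intervals below are Poisson 95% intervals that cover counting error alone. A cluster of 30 nuclei with Cck, Sncg and Slc17a8 among its markers, the type known for CB1-bearing basket cells, held 1650 CPM (1550 to 1760). It made up 3.72% of interneuron nuclei and 24.0% of their Cnr1 UMIs, and by library it held 1890, 1442, 1764 and 1999 CPM from 8, 15, 3 and 4 nuclei. Unnamed clusters led by Ntng1 and Meis2 (66 nuclei, 833 CPM, 785 to 884) and by Cpne5 and Syt6 (54 nuclei, 750 CPM, 699 to 804) came next. Another, of 28 nuclei (513 CPM, 463 to 566), had Itga8, Chst9 and Glis3 among its leading genes. Glis3 is also a dentate granule marker, and this cluster held Napepld at 50.9 and Faah at 70.5 CPM. Whether it mixes RNA of other cells was not tested. The Ntng1 and Meis2 cluster held 28.2% and the cluster of 28 nuclei 9.85% of the Cnr1 UMIs. The 2 Vip clusters held 280 and 303 CPM, Lamp5 and Ndnf cells 189, Sst cells 74.2 and Lhx6 cells 19.2 CPM, and 1 cluster of 15 nuclei had 0 Cnr1 UMIs among 314431. Mgll was also above the class mean in the Cck and Sncg cluster, at 398 CPM, but was higher in 2 clusters with little Cnr1 (520 and 462 CPM).

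**Figure D2:**
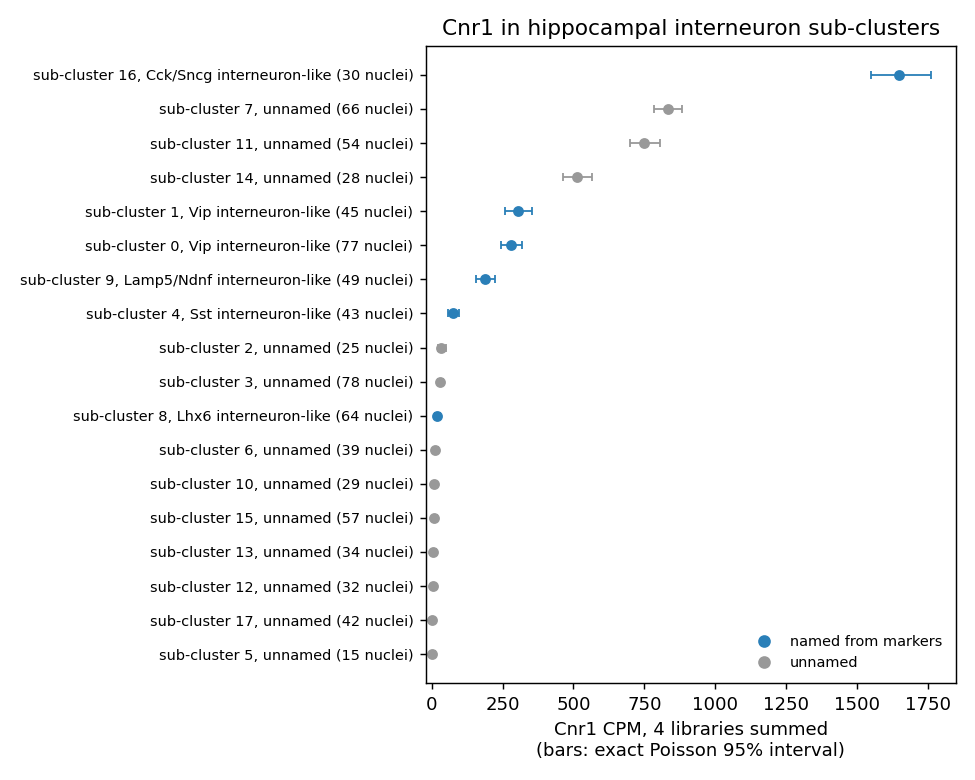
Cnr1 level (CPM, nuclei of the 4 hippocampal libraries pooled) in each cluster of hippocampal interneurons, with Poisson 95% intervals that cover counting error. The Cck and Sncg cluster stands at 1650 CPM, 3 unnamed clusters at 513 to 833 CPM and the Lhx6 cluster at 19.2 CPM.

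In caudate putamen Cnr1 was high in the projection neurons themselves. Eccentric medium spiny neurons, a small group set apart by genes such as Otof and Casz1, held 274, 403, 213 and 281 CPM (293 ± 79.6). They formed 2 clusters that differed in Cnr1: the smaller, of 270 nuclei, held 493, 706, 401 and 513 CPM, and the larger, of 800 nuclei, held 179, 311, 150 and 213 CPM and overlapped the other medium spiny neurons. D1 medium spiny neurons, the cells of the direct pathway, held 223, 284, 195 and 252 CPM (238 ± 38.2), and D2 medium spiny neurons, those of the indirect pathway, 152, 237, 129 and 195 CPM (178 ± 47.8). Pvalb and Pthlh interneurons held 259, 262, 244 and 230 CPM (249 ± 14.6). In the 3 projection neuron classes the second library of each age was above the first, and the ages overlapped. Pvalb and Pthlh interneurons and D1 neurons were not told apart (adjusted p = 0.268). Sst interneurons, at 66.1, 70.8, 71.7 and 91.2 CPM, were below both, by log2 2.10 (adjusted p = 5.96e-13) against D1 neurons and 1.92 (adjusted p = 7.36e-11) against Pvalb and Pthlh interneurons. Cholinergic interneurons held 9.51, 20.3 and 14.8 CPM in the 3 libraries with 20 or more nuclei, the lowest of the neuron classes in caudate putamen.

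The D1 level exceeded the D2 level in each library, by log2 0.43 (adjusted p = 0.00985), but that call was kept in 7 of 12 alternatives. It was lost with an unnamed cluster of medium spiny type included (0.17, adjusted p = 0.491), with clusters mostly of the first libraries left out (0.27, 0.189), with all variable genes in the clustering (0.22, 0.305), with DESeq2 (adjusted p = 0.0999) and without the first 3-month library (0.39, 0.148). The unnamed cluster drew 82.6% and 1 of the 3 D2 clusters 90.1% of its nuclei from the first libraries, against 24.2% to 39.8% in the others. Cnr1 was low in both, at 72.8, 107, 58.5 and 103 CPM in the unnamed cluster and at 56.2, 73.4 and 41.3 CPM in the D2 cluster, whose second 21-month library had under 20 nuclei. In the other 2 D2 clusters it ran from 150 to 289 CPM and in the 3 D1 clusters from 160 to 323 CPM. The excess of eccentric over Pvalb and Pthlh neurons (log2 0.36, adjusted p = 0.028) was lost with DESeq2 (0.142), with library totals (0.199), and without the first (0.0671) or second (0.3) 3-month library.

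Glia and vascular cells of the caudate putamen also carried Cnr1 reads: 79.3 CPM in microglia, 63.3 in oligodendrocytes, 54.1 in astrocytes and 47.7 in oligodendrocyte precursor cells, with 84.3 in endothelial and 70.8 in mural cells. The first 4 were 36.9%, 29.8%, 25.3% and 22.1% of the medium spiny neuron level. The 8 medium spiny neuron markers, which these cells should lack, stood at a median of 19.5%, 14.9%, 13.4% and 12.7% of their neuronal level in the same 4 classes, with 0 of the 8 at 0. Their summed level was 2290 to 3450 CPM at 3 months and 2270 to 4480 CPM at 21 months in the 4 glial classes. In each of the 4 classes the share for Cnr1 was above the median of the markers and below that of Ppp1r1b, the marker for DARPP-32 (91.2% in microglia, 42.1% in oligodendrocyte precursor cells). In endothelial and mural cells it was 38.9% and 33.3%, against marker medians of 27.2% and 17.5%. The part of neuronal RNA in these Cnr1 values was not tested. D1 neurons exceeded oligodendrocytes by log2 2.31 and astrocytes by 2.59.

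**Figure D3:**
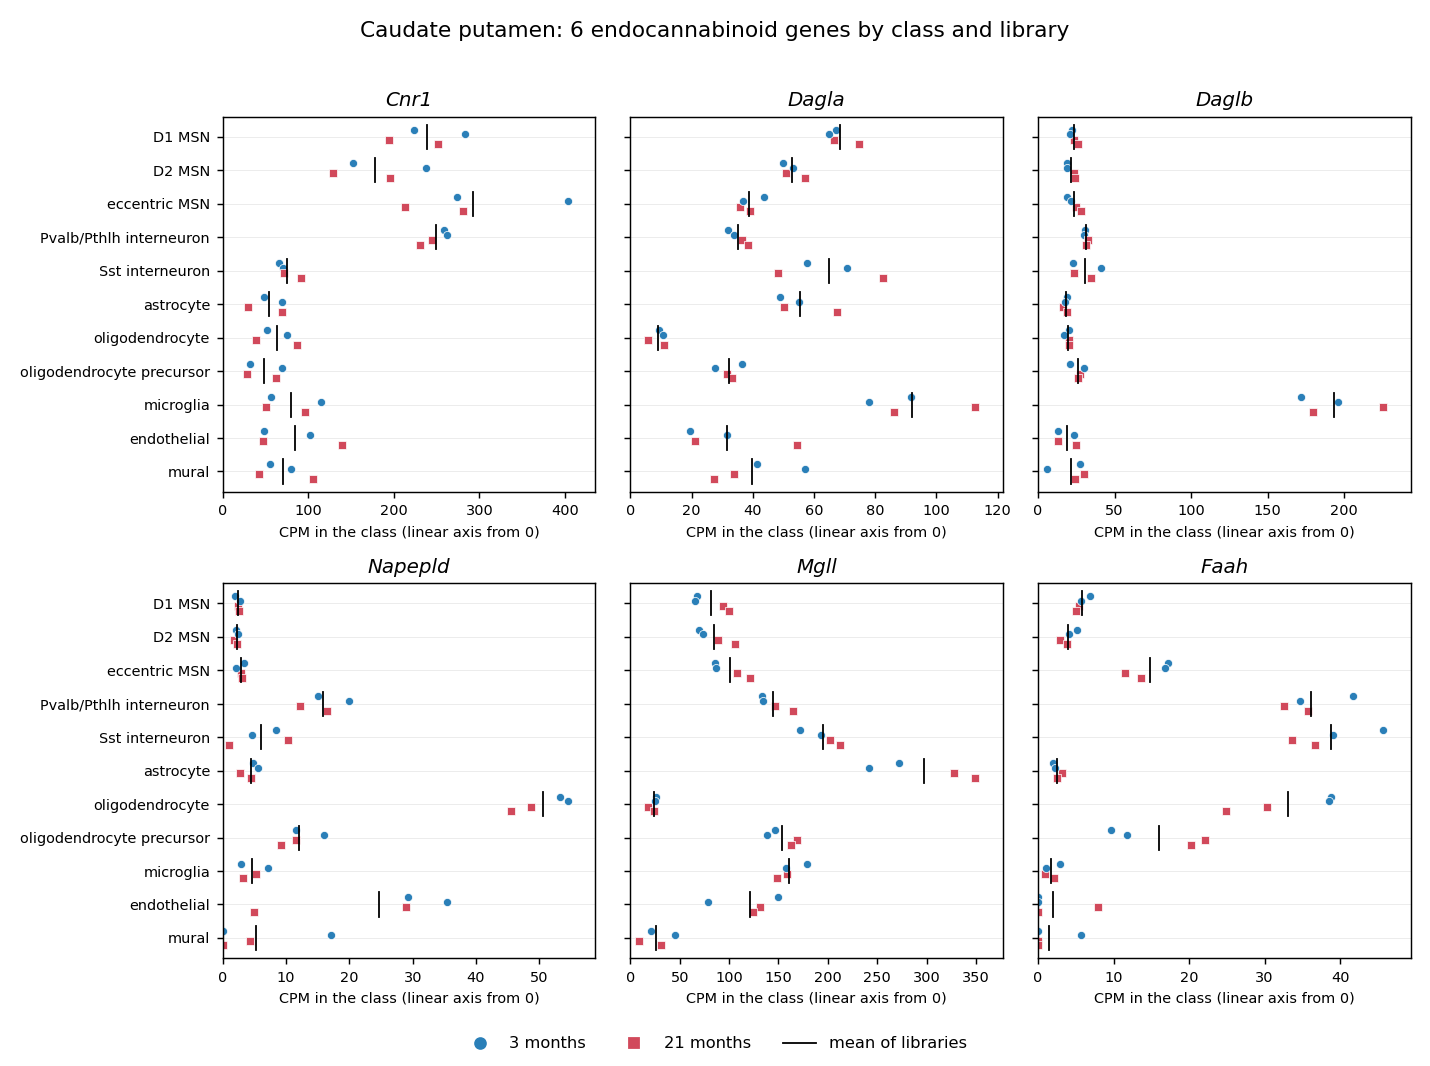
Level of each of the 6 genes (CPM of class sums, linear axis from 0) in the classes of the caudate putamen, with 1 point per library and separate colours for 3 and 21 months. Cnr1 sits at 129 to 403 CPM in the medium spiny neuron classes, Faah at 2.85 to 6.91 CPM in D1 and D2 neurons, and Napepld near 50 CPM in oligodendrocytes.

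Dagla, the synaptic 2-AG synthase, had its highest levels in the excitatory neurons of the hippocampus, with microglia close to CA1. CA3 pyramidal neurons held 197, 184, 231 and 206 CPM (204 ± 19.9), dentate granule neurons 172, 154, 195 and 183 CPM (176 ± 17.8) and CA1 pyramidal neurons 131, 120, 155 and 133 CPM (135 ± 14.7). Interneurons held 51.6, 47.8, 44.4 and 43.4 CPM, below each library of the 3 excitatory classes. Microglia held 89.7, 99.7, 146 and 103.5 CPM, which overlapped CA1 and were above each interneuron library. The fit with TMM put CA1 above microglia by log2 1.07 (adjusted p = 1.04e-05), and with library totals that difference was 0.31 (adjusted p = 0.174). CA3 exceeded interneurons by log2 2.36 (adjusted p = 2.32e-13) and CA1 did by 1.70 (adjusted p = 4.43e-10). CA3 was above CA1 (by log2 0.66, adjusted p = 0.00138), while CA3 and dentate granule neurons (adjusted p = 0.0501) and dentate granule neurons and CA1 (0.146) were not told apart. Dagla and Cnr1 thus had opposite orders among dentate granule neurons and interneurons.

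In caudate putamen Dagla was more even. D1 neurons held 67.3, 64.9, 66.5 and 74.8 CPM (68.4 ± 4.37) and D2 neurons 49.8, 53.1, 51.0 and 56.9 CPM (52.7 ± 3.11), which do not overlap. D1 exceeded D2 by log2 0.36 (adjusted p = 0.000443). Microglia had the highest CPM, 91.6, 78.1, 113 and 86.0, but the fit with TMM put D1 neurons above them by log2 0.33 (adjusted p = 0.006) and library totals put them below by 0.42 (adjusted p = 0.000602), so their order depends on the scaling. With TMM the D1 excess was also lost without the first (0.075) or second (0.065) 3-month library or the second 21-month library (log2 0.17, 0.201), and it was not called with DESeq2 (0.148) or RLE scaling (0.0924). Oligodendrocytes held 9.14 CPM on average and were below D1 neurons by log2 3.29 (adjusted p = 1.07e-33).

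Daglb, the second diacylglycerol lipase, was a microglial gene in both regions. Hippocampal microglia held 252, 191, 295 and 259 CPM (249 ± 43.1) and those of the caudate putamen 172, 196, 225 and 180 CPM (193 ± 23.7). The next class in hippocampus, dentate granule neurons, held 35.9, 32.1, 41.2 and 43.7 CPM, and the remaining classes in the tests of both regions had means of 18.1 to 31.1 CPM. Microglia exceeded dentate granule neurons by log2 2.04 (adjusted p = 1.49e-21) and, in caudate putamen, Pvalb and Pthlh interneurons by 2.15 (adjusted p = 8.11e-23). Hippocampal macrophages, with 20 or more nuclei in 2 libraries, held 91.2 CPM. D1 and D2 neurons were not told apart in Daglb (log2 0.13, adjusted p = 0.414).

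Napepld, the anandamide-forming enzyme, split the excitatory neurons of the hippocampus. Dentate granule neurons held 86.9, 83.2, 78.3 and 84.8 CPM (83.3 ± 3.70), CA3 pyramidal neurons 46.0, 48.0, 47.5 and 36.2 CPM and CA1 pyramidal neurons 8.78, 9.33, 6.57 and 6.72 CPM. The 3 classes do not overlap in any library. Dentate granule neurons exceeded CA1 by log2 3.27 (adjusted p = 1.59e-26), and CA1 was below CA3 (log2 -2.50, adjusted p = 2.33e-20). Oligodendrocytes, the myelinating glia, were also high and were alike in level in both regions, at 52.4, 52.9, 52.3 and 46.6 CPM in hippocampus and 53.3, 54.5, 48.7 and 45.6 CPM in caudate putamen. Dentate granule neurons exceeded them by log2 0.91 (adjusted p = 5.74e-12). Hippocampal endothelial cells (37.4 to 53.1 CPM, mean 44.8) and vascular fibroblasts (27.8 to 50.2 CPM, mean 38.3) overlapped oligodendrocytes and CA3 in CPM. The fit put endothelial cells below CA3 by log2 0.69 (adjusted p = 0.000323), an order that turned with library totals. In caudate putamen, D1 (2.40 CPM), D2 (2.20) and eccentric (2.84) medium spiny neurons had the lowest levels tested, and D1 neurons were below oligodendrocytes by log2 4.01 (adjusted p = 8.25e-38). Between medium spiny neurons and oligodendrocytes the order of Napepld was opposite to that of Cnr1, as it was in hippocampus between dentate granule neurons and CA1 or interneurons.

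Mgll, the enzyme that ends 2-AG signalling, was highest in astrocytes of both regions among the classes tested. Broad levels in neurons, other glia and endothelial cells lay beneath. Hippocampal astrocytes held 618, 529, 615 and 525 CPM (572 ± 51.6) and those of the caudate putamen 272, 242, 328 and 349 CPM (298 ± 49.5). CA3 pyramidal neurons, next among the hippocampal classes tested, held 217, 218, 224 and 231 CPM (223 ± 6.43) and interneurons 188, 210, 249 and 202 CPM. Neuroblasts and immature neurons, which had under 20 nuclei in 1 library and entered no test, held more than CA3 on average, at 347, 227 and 678 CPM in the other 3 libraries (417 ± 234). Astrocytes exceeded CA3 by log2 0.97 (adjusted p = 3.36e-05) and, in caudate putamen, Sst interneurons (195 CPM) by 0.60 (adjusted p = 4.34e-06), while CA3 and interneurons were not told apart (adjusted p = 0.194). CA1 held 81.2, 83.1, 107 and 93.8 CPM, below CA3 by log2 1.36 (adjusted p = 6.34e-07). Microglia had means of 205 CPM in hippocampus and 161 in caudate putamen, oligodendrocyte precursor cells 168 and 154, and endothelial cells 133 and 121. Oligodendrocytes were lowest among glia, at 23.0, 33.5, 19.2 and 12.8 CPM in hippocampus and 25.8, 25.4, 18.3 and 24.1 CPM in caudate putamen. Astrocytes exceeded them by log2 4.66 (SE 0.23, adjusted p = 5.61e-19) and 3.64 (SE 0.11, adjusted p = 4.71e-34). In caudate putamen, D1 (81.6 CPM) and D2 (84.3) neurons were below Sst (log2 0.88 for D1, adjusted p = 1.4e-09) and below Pvalb and Pthlh interneurons (145 CPM; 0.60, adjusted p = 1.26e-06).

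Faah, which ends anandamide signalling, was high in the excitatory neurons of the hippocampus and low in the projection neurons of the caudate putamen. CA3 held 160, 175, 176 and 150 CPM (165 ± 12.4), dentate granule neurons 142, 140, 138 and 136 CPM (139 ± 2.69) and CA1 131, 132, 133 and 111 CPM (127 on average). Neighbours in this order were not told apart (adjusted p = 0.0835 and 0.894). Interneurons held 42.2, 48.3, 41.5 and 31.8 CPM, below each excitatory library, and CA3 exceeded them by log2 2.28 (adjusted p = 1.26e-10). D1 neurons held 6.91, 5.76, 5.48 and 5.04 CPM and D2 neurons 5.11, 4.08, 2.85 and 3.88 CPM. Sst interneurons (45.7, 39.1, 33.6 and 36.7 CPM), Pvalb and Pthlh interneurons (41.7, 34.6, 32.6 and 35.7 CPM) and oligodendrocytes (38.8, 38.5, 30.3 and 24.9 CPM) were the high classes of the caudate putamen and were not told apart in order (adjusted p = 0.922 and 0.104). The oligodendrocyte value was carried by a cluster of 2534 nuclei with 91.5, 88.0, 75.8 and 88.7 CPM, while the largest cluster of the class, of 9523 nuclei, held 13.8, 15.7, 8.72 and 9.51 CPM. D1 neurons were below Sst interneurons by log2 2.36 (adjusted p = 7.69e-16), below Pvalb and Pthlh interneurons by 2.40 and below oligodendrocytes by 2.15 (adjusted p = 4.13e-26). The 2 regions' neurons were sequenced in separate libraries, so this contrast is a side by side reading of levels.

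With age, 1 member passed the test in medium spiny neurons: Mgll rose. In D1 neurons it went from 67.1 and 65.3 CPM at 3 months to 93.7 and 100.2 CPM at 21 months, a log2 change of 0.53 (SE 0.06, adjusted p = 0.00331). In D2 neurons it went from 69.7 and 73.1 to 88.4 and 106 CPM (0.42, SE 0.09, adjusted p = 0.0495). The ages do not overlap in either class. These 2 were the calls among 28 tests of members in neurons of the caudate putamen (7.14%), where 2.89% of all gene tests passed; 6 of the 28 had an unadjusted p under 0.05. Among all genes, 2.75% rose in D1 and 2.02% rose in D2 neurons. The D1 call held in the 12 alternative analyses run (adjusted p from 9.94e-11 to 0.0495). The D2 call was lost with doublets retained (adjusted p = 0.293), at Leiden resolution 2.0 (0.0505), and without the first (0.37, 0.153) or second (0.48, 0.12) 3-month library or the second 21-month library (0.29, 0.19), and with the cluster mostly of the first libraries left out it was 0.41 (adjusted p = 0.0192).

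The same order was seen inside the clusters that make up these classes. In the 3 D1 clusters Mgll was 43.1 to 111 CPM at 3 months and 59.7 to 139 at 21 months, and within each cluster the ages did not overlap. For example, 1 D1 cluster went from 71.8 and 70.4 to 91.6 and 102 CPM and another from 43.1 and 50.5 to 59.7 and 64.1 CPM. In the D2 clusters 57.2 and 63.7 CPM became 66.5 and 98.8, and 117 and 101 became 135 and 129, while the cluster mostly of the first libraries had 63.5 and 85.3 CPM against 89.2 in its 1 old library with 20 or more nuclei. The unnamed medium spiny cluster went from 54.6 and 70.6 to 79.2 and 89.1 CPM. Single clusters were not tested, and these are values only. The mix of D1 clusters also differed between the ages. The D1 cluster with the lowest pooled Mgll (52.5 CPM) held 1191 of 2333 and 2613 of 4653 D1 nuclei at 3 months. At 21 months it held 913 of 2391 and 1411 of 5041. The part of this shift in the D1 change was not tested.

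**Figure D4:**
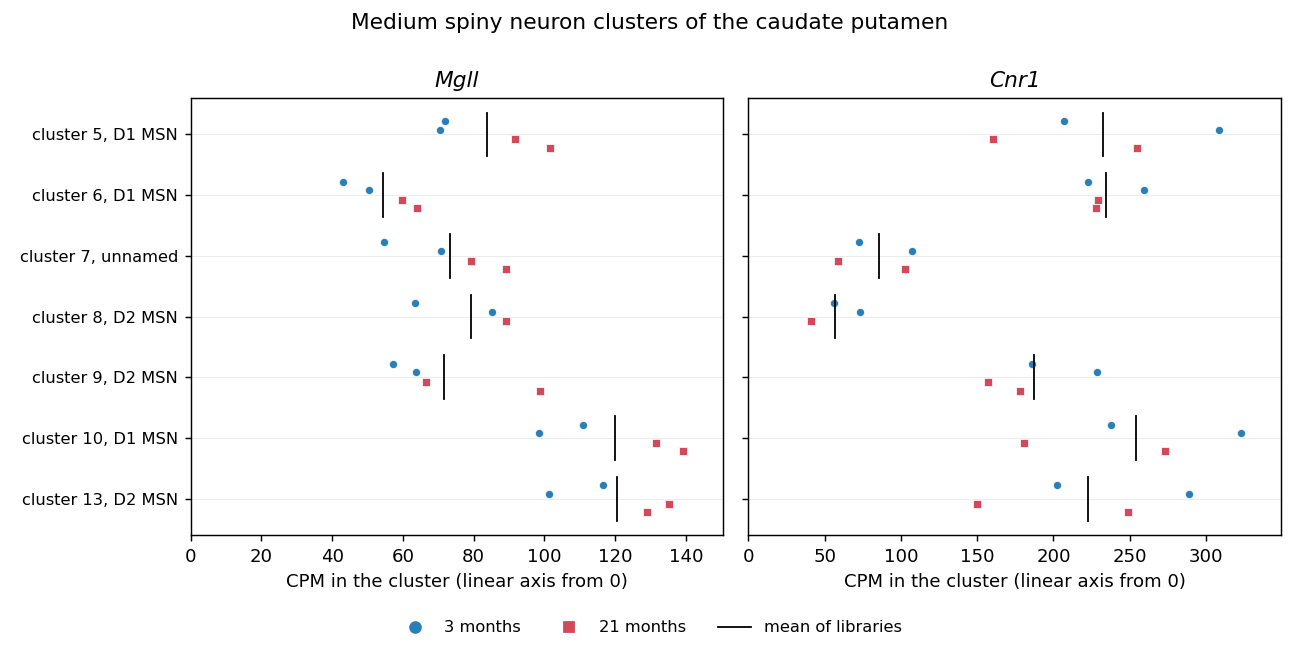
Mgll and Cnr1 level (CPM) in each cluster of D1, D2 and unnamed medium spiny neurons of the caudate putamen, with 1 point per library that had 20 or more nuclei. For Mgll the 21-month points lie above the 3-month points in each of the 7 clusters, and for Cnr1 the ages overlap in 5 of the 7.

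In the other classes tested the Mgll estimates had either sign and did not pass. The 3 highest were these. In eccentric medium spiny neurons 86.1 and 87.0 CPM stood against 108 and 121 (log2 0.40, adjusted p = 0.21), in caudate putamen astrocytes 272 and 242 against 328 and 349 (0.41, adjusted p = 0.134), and in CA1 81.2 and 83.1 against 107 and 93.8 (0.37, adjusted p = 0.078). In those 3 classes the ages did not overlap. The 21-month libraries were also both above the 3-month ones, with smaller estimates, in dentate granule neurons (127 and 126 against 139 and 133 CPM, log2 0.16, adjusted p = 0.221), CA3 (0.12, 0.935), Sst interneurons (0.19, 0.911), Pvalb and Pthlh interneurons (0.23, 0.56) and caudate putamen oligodendrocyte precursor cells (0.25, 0.637). They were both below in oligodendrocytes of both regions and in hippocampal oligodendrocyte precursor cells. Neuroblasts and immature neurons, not tested, held 347 and 227 CPM at 3 months against 678 (28 nuclei) and 559 (7 nuclei) at 21 months. Hippocampal astrocytes (618 and 529 against 615 and 525 CPM) overlapped, and hippocampal oligodendrocytes had 23.0 and 33.5 against 19.2 and 12.8 CPM (-0.77, adjusted p = 0.134). Whether the age effect differed between neuron classes was not tested. For glia and endothelial cells the difference of the age effects between the regions was tested, and 0 of 28 member tests passed with edgeR or DESeq2 (4 at an unadjusted p under 0.05), against 0.00862% of all gene tests.

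**Figure D5:**
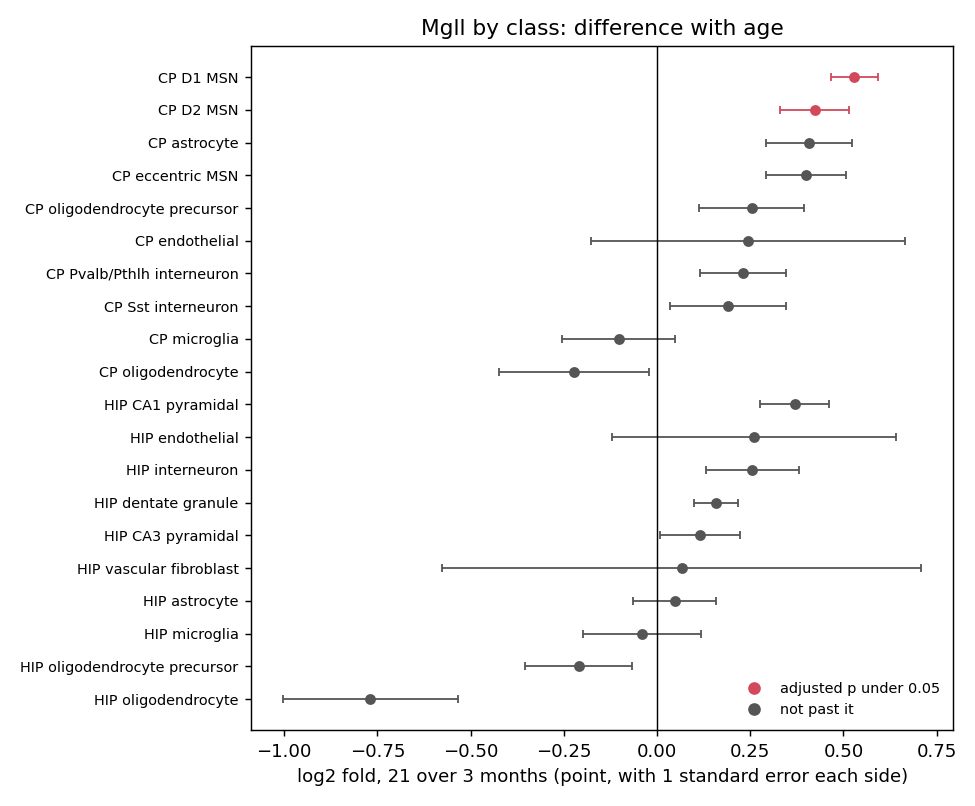
Log2 change of Mgll from 3 to 21 months in each class tested, from edgeR, with bars of 1 SE and red points for an adjusted p under 0.05. D1 (0.53) and D2 (0.42) medium spiny neurons are the classes in red.

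The other members gave few age calls. In hippocampal neurons 0 of 24 tests passed with edgeR and 3 with DESeq2, each in dentate granule neurons (7 at an unadjusted p under 0.05), where 1.07% of all gene tests did with edgeR. Among the nearest was Cnr1 in dentate granule neurons, the class with the least Cnr1. It went from 3.26 and 5.03 to 1.46 and 2.20 CPM (log2 -1.15, SE 0.26, adjusted p = 0.0616). It passed with DESeq2 (0.00999), with RLE scaling (0.0492), with no filter (6.34e-07) and without the first 3-month library (1.44e-09). Daglb in the same neurons went from 35.9 and 32.1 to 41.2 and 43.7 CPM (0.38, adjusted p = 0.0586) and passed with DESeq2 (0.0149) and RLE scaling (0.0496). The dentate granule cluster with the highest pooled Daglb level (49.1 CPM) made up 19.5% and 12.9% of the class at 3 months and 52.0% and 47.7% at 21 months, and within it the ages overlapped (51.6 and 42.7 against 48.2 and 55.1 CPM). Dagla there passed with DESeq2 (log2 0.28, adjusted p = 0.0493), and Daglb in D2 neurons went from 19.0 and 18.8 to 23.4 and 24.0 CPM (0.30, adjusted p = 0.0589). Over all age tests Cnr1 passed in 0 of 26 with edgeR (1 at an unadjusted p under 0.05, 1 with DESeq2), and its ages overlapped in D1, D2 and eccentric medium spiny neurons. The Cnr1 estimates there were negative (log2 -0.21, -0.29 and -0.46, adjusted p = 0.583, 0.714 and 0.581), with the spread between the first and second libraries noted above in each.

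In glia and vascular cells 1 of 28 tests of the mean age effect over both regions passed, against 2.98% of all gene tests: Faah fell in oligodendrocytes (log2 -0.54, SE 0.14, adjusted p = 0.0481). It had 26.9 and 45.8 CPM at 3 months and 23.6 and 21.6 at 21 months in hippocampus (45.8 being the library in which doublets were removed up to an expected share and not by Scrublet's threshold), and 38.8 and 38.5 against 30.3 and 24.9 CPM in caudate putamen. Each old library was below each young library of its region. In caudate putamen the cluster rich in Faah made up 24.8% and 24.5% of the class at 3 months and 23.4% and 14.0% at 21 months. Within it the ages overlapped (91.5 and 88.0 against 75.8 and 88.7 CPM), and in the largest cluster they did not (13.8 and 15.7 against 8.72 and 9.51 CPM). In hippocampus, where the class was 1 cluster, the summed dentate granule markers in the same nuclei went from 1060 and 1080 to 903 and 903 CPM. The part of these shifts in the Faah difference was not tested. The call was lost in 10 of 15 alternatives, among them doublets retained (-0.16, adjusted p = 0.504), where new clusters also cut the class in caudate putamen from 2247 to 3822 nuclei per library to 508 to 748, library totals (0.0544) and leaving out the second 3-month (-0.34, 0.161), first 21-month (0.137) or second 21-month (0.142) hippocampal library, or the first 3-month (0.144), second 3-month (0.158) or second 21-month (0.088) caudate putamen library. Within 1 region, 0 of 34 tests passed in hippocampus (6 at an unadjusted p under 0.05) and 0 of 29 in caudate putamen (3), with edgeR and with DESeq2 alike, where 0.587% and 0.665% of all gene tests did.

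The same glial classes were compared between the regions. At 3 months 9 of 28 member tests passed (4 higher and 5 lower in caudate putamen) and at 21 months 6 of 28 (3 higher and 3 lower), against 6.11% and 6.23% of all gene tests. Over both ages Dagla passed in 0 of 10 and Daglb in 0 of 8 tests with edgeR and with DESeq2 (0 and 2 at an unadjusted p under 0.05). The firmest difference was Mgll in astrocytes, whose 4 hippocampal libraries (525 to 618 CPM) were all above the 4 of the caudate putamen (242 to 349 CPM). It was lower in caudate putamen by log2 1.17 at 3 months (SE 0.12, adjusted p = 1.1e-05) and 0.81 at 21 months (SE 0.11, adjusted p = 0.000238), under each alternative run. Among the unnamed hippocampal clusters, left out of the class, Mgll reached 248 CPM. With doublets retained, a hippocampal cluster with Slc6a11, Agt and Itih3 among its leading genes was named astrocyte and held 251 CPM. In the same setting a caudate putamen astrocyte cluster with those genes held 130 CPM, from 80, 0, 91 and 1 nuclei. Whether the astrocyte classes of the 2 regions hold like subtypes was not tested. In astrocytes of either age 12.8% and 13.5% of all genes passed (3 and 21 months).

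Napepld was also lower in caudate putamen astrocytes, at 4.79, 5.58, 2.68 and 4.51 CPM against 10.8, 13.6, 7.21 and 9.61 CPM in hippocampus. These are 42 against 184 UMIs at 3 months and 37 against 95 at 21 months. Dentate granule neurons held 83.3 CPM of Napepld, and D1 and D2 neurons 2.40 and 2.20 CPM. Dentate granule markers stood in hippocampal astrocytes at a median of 15.3% of their neuronal level. The part of neuronal RNA in the Napepld difference was not tested. The log2 difference of Napepld was -1.25 at 3 months (adjusted p = 0.0107) and -1.29 at 21 months (0.0143). The first was lost with DESeq2 (0.0514) and without the first 3-month caudate putamen library (0.103), and the second with DESeq2 (0.0502), without the second 21-month hippocampal library (0.1) and without the first 21-month caudate putamen library (0.171). Faah in astrocytes was 8.35 and 20.4 CPM in hippocampus against 1.96 and 2.23 CPM in caudate putamen at 3 months (-2.78, SE 0.46, adjusted p = 0.00173, and -2.04 without the second 3-month hippocampal library) and 5.74 and 4.80 against 3.15 and 2.48 CPM at 21 months (-0.96, adjusted p = 0.232). In microglia Faah rested on few reads. At 3 months 36 UMIs were counted in hippocampus and 4 in caudate putamen, a ratio of CPM of 0.0629 (exact 95% counting interval 0.0163 to 0.176), and at 21 months 20 and 3, a ratio of 0.0753 (0.0143 to 0.254). The fit called both (adjusted p = 0.00399 and 0.0188), the first not without the second 3-month library of hippocampus (0.297) or of caudate putamen (0.269), the second not without the second 21-month hippocampal (0.252) or the first (0.1) or second (0.0525) 21-month caudate putamen library. In oligodendrocyte precursor cells Faah at 3 months, 27.0 and 23.6 against 9.63 and 11.8 CPM, was lower in caudate putamen by log2 1.20 (adjusted p = 0.0327), a call lost in 5 of 15 alternatives (-2.05 with doublets retained). At 21 months the order was the other way, 16.1 and 11.02 against 22.1 and 20.3 CPM, with no overlap, and the difference did not pass (log2 0.60, adjusted p = 0.588).

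Neuronal RNA in glia was read beside these differences. Faah reads in hippocampal glia, where dentate granule neurons hold 139 CPM, stood at 7.04% (astrocytes) to 21.2% (oligodendrocytes) of the dentate granule level, and the dentate granule markers in the same glia at a median of 15.1% to 30.5% of theirs. Their summed level was 1050 to 1170 CPM in astrocytes, 903 to 1080 in oligodendrocytes, 269 to 569 in microglia and 257 to 429 in oligodendrocyte precursor cells. Cnr1, in turn, was higher in glia of the caudate putamen, where medium spiny neurons carry it. The log2 difference was 2.24 (adjusted p = 0.0395) and 2.20 (0.0484) in astrocytes at 3 and 21 months, 2.69 (0.00914) and 3.51 (0.00454) in oligodendrocytes, and 1.56 (0.0495) in oligodendrocyte precursor cells at 3 months. In microglia 20 UMIs in hippocampus and 262 in caudate putamen at 3 months gave a CPM ratio of 7.42 (exact 95% counting interval 4.71 to 12.3), and 4 and 147 at 21 months gave 18.4 (7.05 to 68.6). The astrocyte calls were lost in 7 and 8 of 15 alternatives, the microglia calls without the first (0.0917) or second (0.11) 3-month and the first (0.0781) or second (0.133) 21-month hippocampal library, and the oligodendrocyte calls without the first (0.202 at 3 months, 0.0556 at 21) or second (0.152, 0.0522) 3-month hippocampal library. The call in oligodendrocyte precursor cells was lost in 6 of 15: with DESeq2 (0.0845), without the first (0.246) or second (0.307) 3-month or the first (0.124) or second (0.129) 21-month hippocampal library, and without the second 3-month caudate putamen library (log2 0.80, 0.649), while with doublets retained the difference was 2.33. Without the second 21-month caudate putamen library the differences at 21 months were 1.50 in astrocytes and 2.84 in oligodendrocytes, and without the second 3-month one that of microglia at 3 months went from 2.78 to 2.06. The share of neuronal RNA in these glial values was not tested.

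The other genes of the pathway were followed as a list of 31: further receptors, CB1 partners, the G proteins, phospholipases and receptors that lead to 2-AG synthesis, other enzymes of both lipids, and lipid carriers. With age, 0 of 28 measured list genes passed in D1 neurons with edgeR (6 at an unadjusted p under 0.05, 1 with DESeq2), where 6.08% of all genes did. In CA1 it was 0 of 24 (1 unadjusted), in CA3 0 of 22 (0), in eccentric medium spiny neurons 0 of 22 (1) and in hippocampal interneurons 0 of 21 (2), with 0 by DESeq2 in each, where 0.81%, 0.144%, 0.0594% and 0.0% of all genes passed. In D2 neurons 1 of 28 passed, where 4.8% of all genes did, and in dentate granule neurons 1 of 27, where 2.64% did. Both were Chrm3, the M3 muscarinic receptor, which couples to phospholipase C. It fell by 0.57 on the log2 scale in D2 neurons (SE 0.09, adjusted p = 0.0214, mean level 472 CPM) and by 0.92 in dentate granule neurons (SE 0.14, adjusted p = 0.0158, mean level 16.6 CPM). The D2 call was lost without the second 3-month (adjusted p = 0.0863), first 21-month (0.0719) or second 21-month (0.0944) caudate putamen library, and the dentate call without the first (0.149) or second (0.142) 21-month hippocampal library. Chrm3 was highest in CA1 (2130 CPM) and CA3 (1920 CPM), and stood at 15.0 CPM in D1 neurons.

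In astrocytes, list genes differed between the regions alongside Mgll. At 3 months 2 of 24 were higher in caudate putamen, where 7.01% of all genes were, and 4 were lower, where 5.77% were. Plcb1 (log2 -1.10, adjusted p = 2.89e-06) and Plcb4 (-0.58, 0.00205), which are phospholipases C, and Naaa (-0.86, 0.00306), a lysosomal acid amidase, were lower, and Plaat3, a phospholipase and acyltransferase, was higher (0.96, 0.000462), under each alternative. Abhd12, a 2-AG hydrolase, was higher (0.43, 0.0248), a call lost in 5 of 15 alternatives, among them without the first 3-month (0.139), first 21-month (0.0539) or second 21-month (0.0526) hippocampal or the second 3-month caudate putamen (0.226) library. At 21 months 3 were higher (7.47% of all genes) and 4 lower (5.99%). Plcb1 (-1.15, adjusted p = 1.98e-06), Naaa (-1.21, 0.000164) and Plcb4 (-0.63, 0.00104) were again lower under each alternative. Plaat3 was higher (0.70, 0.00348; 0.0787 without the first 21-month hippocampal and 0.0626 without the first 21-month caudate putamen library), and Fabp7, a lipid carrier, lower (-2.19, 0.00443; 0.0693 without the first 21-month hippocampal library, and -3.21 without the first 21-month caudate putamen one). The levels of Plcb1 were 2990 ± 124 CPM in hippocampal and 1410 ± 58.0 in caudate putamen astrocytes, those of Naaa 43.8 ± 7.05 and 21.6 ± 1.71 CPM and those of Plaat3 27.3 ± 6.05 and 48.9 ± 7.68 CPM. With age Plaat3 rose in astrocytes over both regions (0.47, adjusted p = 0.0208), where 3.48% of all genes passed, and the call was lost in 5 of 15 alternatives.

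In the oligodendrocyte lineage the list gave fewer calls. Plcb4 rose with age in oligodendrocytes (mean of both regions, log2 0.75, adjusted p = 0.000965), a call kept in each alternative, where 5.69% of all genes passed. In caudate putamen alone Plcb4 rose by 0.87 (adjusted p = 0.00558, and 0.135 without the second 3-month library), where 1.38% of all genes passed. Grm5, the mGluR5 receptor upstream of 2-AG synthesis, was higher in caudate putamen oligodendrocytes by log2 1.20 at 3 months (adjusted p = 0.042, lost in 7 of 15 alternatives) and 2.02 at 21 months (0.00522), and Plcb1 was higher at 21 months by 1.82 (0.00369), where 6.65% and 6.71% of all genes passed. Both genes are abundant in medium spiny neurons (Grm5 4300 and Plcb1 3770 CPM in D1 neurons), whose RNA in these glia is described above, and its part was not tested. In oligodendrocyte precursor cells Chrm3 was lower in caudate putamen at 3 months (-1.17, adjusted p = 0.0144, 2.93% of all genes passing) and higher with age over both regions (0.79, 0.0282, 2.06%). Grm5 there was lower in caudate putamen at 21 months (-0.42, 0.00492, 2.33%) and higher with age in hippocampus (0.35, 0.0369, 1.15%). These 4 were lost in 3 to 9 alternatives each, and with doublets retained the 2 region differences turned (Chrm3 0.82, Grm5 0.16).

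By likeness of pattern over the 28 classes of both regions (Pearson's r of mean log2(CPM + 1), among 15670 genes, given as a description), the closest genes to Cnr1 were Neto2 (0.838), Kcnq5 (0.83) and Cntnap3 (0.818). Those closest to Daglb were A530088E08Rik (0.953), Cryba4 (0.935) and Fermt3 (0.933), and to Faah Cpne6 (0.872), Trhde (0.856) and Galnt9 (0.832). For Napepld they were Tanc1 (0.8), Il1rap (0.787) and Ptprk (0.763), for Dagla Iqsec2 (0.778), Prkce (0.771) and Pigk (0.759), and for Mgll Fgf13 (0.742), Disp3 (0.741) and Slc26a8 (0.724). Among the members themselves the furthest apart were Cnr1 and Napepld (-0.601), and the nearest were Faah and Napepld (0.499) and Dagla and Mgll (0.496). Classes of 1 region share their libraries, and neuron classes are deeper than glia.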

How the data were processed

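The deposited files hold raw UMI counts per gene and nucleus, whole numbers in which the authors merged both animals of a library. Per the file headers, 7 matrices were written by Cell Ranger 6.1.2 and 1 (the second 3-month caudate putamen library) by 7.0.0, while the submitters' processing notes list Cell Ranger 4.0.0 and mm10. Of the feature identifiers, 99.6% were found in GENCODE vM21. No column of per-sample values was left unused.

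Nuclei were kept from 500 detected genes upwards and up to 5% of UMIs from mitochondrial genes, and 10604 doublets called by Scrublet (2.59% to 15.5% per library) were removed. In the second 3-month hippocampal library Scrublet's own threshold called 0.129%, so the nuclei with the highest scores were removed up to the expected share (16.2% of the nuclei scored). The other 7 libraries used the automatic threshold. Each region was clustered (scanpy 1.11.5, 3000 variable genes, 40 components, 20 neighbours, Leiden resolution 1.0) without the members and the list of related genes. A cluster was named from at least 3 markers and a mean log2 score of 1.0. Counts were summed per class and library with 20 or more nuclei and tested with edgeR 4.0.16 (TMM, filterByExpr, robust quasi-likelihood fit), with Benjamini-Hochberg adjustment over all genes of a fit. Glial classes were fitted over 8 libraries and pairs of classes with the library as block. DESeq2 1.42.0, other scaling, filters, doublet handling, clusterings and each library left out were the alternatives. On simulated counts the fit recovered 64% to 84% of 2-fold age or region changes and 2% to 10% of 1.4-fold ones. The simulation gave all genes the same dispersion and changed only genes above 10 CPM. These rates therefore do not cover members with a wider spread between libraries or a lower level.

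The text names the 6 members, without a value for each of them in every class. From the list it names the genes past the adjusted threshold of 0.05 in an age or region contrast (at most 5 per comparison, by smallest p). For likeness it names 3 genes per member. Members and lists were chosen with earlier results of these data known. Clusters of medium spiny neurons that come mostly from 1 library number, the clusters within other classes, and library totals were examined after the data were seen.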

Additional observations from a re-analysis of the deposited data

How the results depend on the processing

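The class with the highest CPM was kept for 12 of 12 pairs of gene and region with each library left out and with CPM averaged over nuclei. It also had the highest share of nuclei with a UMI after thinning in 11 of 12, and at 1500 UMIs that share of Cnr1 in caudate putamen was highest in Pvalb and Pthlh interneurons. Of 600 member tests between pairs of classes 430 passed, and 322 to 435 did in the alternatives (410 to 435 with 1 library left out). With doublets retained, Dagla in hippocampus turned for astrocytes against endothelial cells (-0.023) and interneurons against endothelial cells (-0.179). With library totals, these turned: Daglb CA1 against vascular fibroblasts (-0.069), Mgll dentate granule neurons against endothelial cells (-0.051), Napepld CA3 against endothelial cells (-0.036), and, in caudate putamen, Dagla D1 neurons against microglia (-0.422) and D2 neurons against astrocytes (-0.067). For these 5 the scaling itself shifts the values.

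Age calls in neurons numbered 2, with 5 by DESeq2, 4 with RLE factors, 8 with no filter on low counts and 1 to 6 with 1 library left out (1 without the second 3-month or second 21-month caudate putamen library, 6 without the first 3-month and 4 without the second 21-month hippocampal library). Age calls in glia numbered 1, with 9 under no filter, 0 at Leiden resolution 2.0, 0 with each region fitted alone, 0 with library totals and 0 to 6 with 1 library left out (6 without the first 3-month hippocampal library). Region calls numbered 15, and 8 to 15 with 1 library left out (8 without the second 3-month hippocampal library). The cause was not tested. For 2 list genes in oligodendrocyte precursor cells the region difference turned with doublets retained, Grm5 at 21 months (0.16) and Chrm3 at 3 months (0.82).

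With the replicate number as block, 8 age calls in neurons, 1 in glia and 17 region calls were made. Those in neurons were Mgll in D1, D2 and CA1 (adjusted p = 0.0281), Daglb in D2 (0.0164), and Cnr1 in D1 (log2 -0.21, 0.0499), D2 (-0.28, 0.0149), eccentric (-0.45, 0.0118) and dentate granule neurons (-1.12, 0.022). In glia Mgll in caudate putamen astrocytes passed (0.0494) and Faah in oligodendrocytes did not (0.0543). Deviations of same-numbered libraries correlated at -0.142 to 0.238 in hippocampus and -0.007 to 0.536 in caudate putamen over classes, with 2 pairs per region and no label that ties the numbers to animals. Choroid plexus nuclei of the caudate putamen came from its first libraries alone (71 and 59).

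The depth of rare classes limits their values: classes in the tests had as few as 38 nuclei in a library. With doublets retained the clusters were drawn and named anew, so classes changed too (oligodendrocytes of the caudate putamen lost their largest cluster), and Mgll in D1 neurons had no value.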
